A study of Apis mellifera with 36 samples.

Results

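In brain tissue of honey bee workers (Apis mellifera), 63 of the 15314 genes listed were wholly higher in colony 5 than in colony 6. Their lowest level among 18 colony 5 bees lay above their highest level among 18 colony 6 bees. Levels are in CPM, the reads counted for a gene per 1000000 reads counted over all genes of that library, and a mean of at least 1 CPM over colony 5 was also required. The set makes up 0.411% of the genes listed and 0.61% of the 10336 genes that reached that mean. The same rule turned round, for genes wholly lower in colony 5, held for 49 genes. Every value that set the 2 colonies apart was used to choose the genes, so their colony differences are given as a description, with no test.

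The 36 libraries each came from the brain of a separate worker aged 7 days, dissected so that mushroom bodies and central brain made up most of it. Both queens had been inseminated with the semen of a single drone each. A colony is here therefore a single family, and each gave 6 unresponsive bees, 6 guards and 6 nurses. All bees were kept after emergence in dishes of 10, where guards attacked an intruder bee in both trials, nurses tended a queen larva in both trials, and unresponsive bees did neither. No treatment or genetic change was applied to any bee, and bees are named by type and by the number in their title.

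A drone has no father and carries a single copy of each chromosome. His daughters therefore all receive the same paternal genome, while from their mother they receive, at each place, either of her copies. The mushroom bodies are paired centres of the insect brain for learning and for combining the senses, and deformed wing virus (DWV) is an RNA virus of honey bees that can reach high loads without outward signs.

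Libraries held 16.2 to 22.7 M (mega) gene counts in colony 5, with a median of 18.6 M, and 16.6 to 27.5 M in colony 6, with a median of 19.1 M. The 3 libraries numbered 213, all from colony 6, were the deepest. The colonies differed in family and in labelled DWV load, with 13 of 18 colony 5 bees and 3 of 18 colony 6 bees at high load. Family and anything else that differed between the colonies cannot be told apart. In bulk tissue, fewer cells that express a gene and less RNA per cell cannot be told apart either. None of the gene IDs was found in the RefSeq gene table used here, so genes are given by ID, without names or roles, and the markers of the labelled tissue could not be looked up.

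The 63 genes together took 0.593% ± 0.0355 of gene counts in colony 5 and 0.357% ± 0.0149 in colony 6 (SD, n = 18 each). With colony 6 libraries alone, 55 of the 63 genes passed the low-count filter. The others passed through colony 5, where the rule made them high, so that all 63 passed in the model fitted to all genes. In that model 17.5% of the 10948 genes tested were higher and 16.7% were lower in colony 5 (edgeR quasi-likelihood test, Benjamini-Hochberg adjusted p under 0.05), which is the background to the set and no support for it, since the set was chosen on the same contrast. The median ratio of the colony 5 mean to the colony 6 mean was 2.33 over the 63 genes and 0.997 over all genes tested. On the model's log2 scale the median difference was 1.22 for the set and 0.00 for all genes tested, and single genes ran from 0.27 to 9.13. Of the 63 genes, 50 had a ratio of at least 1.5, 35 of at least 2, 16 of at least 4 and 10 of at least 10. In 15 genes the lowest colony 5 bee had at least 2 times the CPM of the highest colony 6 bee, and in 18 genes at least 1.5 times. Reads were found in every colony 6 bee for 52 genes, and 11 genes had 0 reads in at least 1 colony 6 bee. The plot of all 63 genes in every bee shows this range from near absence to a narrow step.

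**Figure D1:**
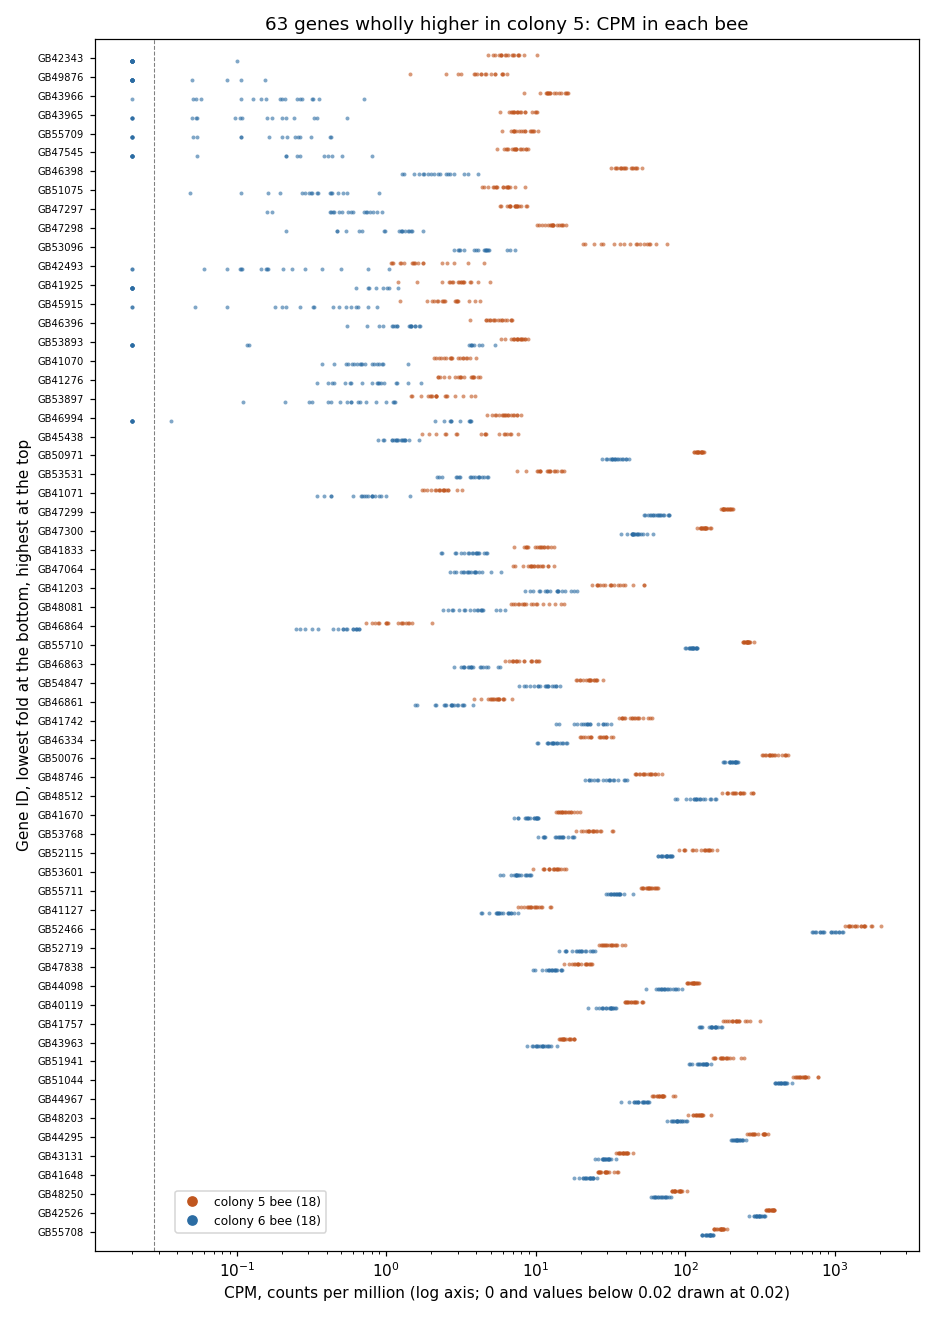
CPM of each of the 63 genes (rows, ordered by the ratio of the colony means) in each of 18 colony 5 bees and 18 colony 6 bees, on a log axis on which 0 and values under 0.02 CPM are drawn at 0.02. The colony 5 points of every gene lie right of its colony 6 points, from GB42343 at the top, with reads in 1 colony 6 bee, to GB55708 at the bottom, with a ratio of 1.203.

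In colony 6, 6 genes were near absent, which is taken here as a colony 6 mean under 5% of the colony 5 mean. GB42343 was at 4.82 CPM in the lowest, 6.40 CPM in the median and 10.2 CPM in the highest colony 5 bee, and at 0 in 17 of 18 colony 6 bees. Guard 222 was the exception, with 0.101 CPM from the 2 reads that are all the reads of this gene in colony 6. Pooled over libraries, 2221 reads in colony 5 against 2 in colony 6 gave a ratio of 1202, with a 95% exact Poisson interval of 333 to 9922 that covers counting error only. Here the groups stand apart by reads in each colony 5 bee and almost no reads in colony 6.

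GB49876 was at 1.45, 4.44 and 6.37 CPM in the lowest, median and highest colony 5 bee, against 0, 0 and 0.153 CPM in colony 6, where 14 bees had no read. GB43966 was at 8.31, 12.4 and 16.4 CPM in colony 5, against 0, 0.197 and 0.714 CPM in colony 6. GB43965 was at 5.73, 7.58 and 10.2 CPM in colony 5, against 0, 0.107 and 0.543 CPM in colony 6. Unlike GB42343, GB43966 had reads in 17 of 18 colony 6 bees, so that a low level was seen in nearly each of them. GB55709 was at 5.94, 8.09 and 10.4 CPM in colony 5, against 0, 0.136 and 0.429 CPM in colony 6. GB47545 was at 5.47, 7.29 and 8.91 CPM in colony 5, against 0, 0.133 and 0.805 CPM in colony 6. The ratios of means were 201 for GB49876, 62.0 for GB43966, 53.3 for GB43965, 51.9 for GB55709 and 37.2 for GB47545.

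A further 29 genes were graded, at colony 6 means between 5% and 50% of the colony 5 mean, with ratios of 2.02 to 17.6 and a median of 3.71. GB46398 led them, at 31.7, 39.3 and 51.3 CPM in the lowest, median and highest colony 5 bee, against 1.28, 2.16 and 4.10 CPM in colony 6. GB51075 was at 4.35, 6.01 and 8.49 CPM in colony 5, against 0.0485, 0.330 and 0.889 CPM in colony 6. Both had reads in all 36 bees. GB53096 was at 20.5, 44.7 and 75.9 CPM in colony 5, against 2.82, 4.55 and 7.23 CPM in colony 6, a ratio of 9.70. GB50971 had one of the tightest distributions, at 114, 123 and 132 CPM in colony 5, against 27.7, 33.9 and 41.9 CPM in colony 6, a ratio of 3.58. GB55710 was at 243, 259 and 287 CPM in colony 5, against 98.8, 112 and 120 CPM in colony 6, a ratio of 2.33. In the last 2 genes the gap between the colonies is wider than the range of either.

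The remaining 28 genes were graded under 2-fold, with ratios of 1.203 to 1.99 and a median of 1.55. Their colony 5 means were between 9.77 and 1469 CPM with a median of 63.4 CPM, against a median of 7.55 CPM in the graded genes above 2-fold and 7.61 CPM in those near absent in colony 6. CPM is not divided by transcript length, so levels of different genes are not ordered here by RNA molecules. The highest colony 5 mean was that of GB52466, at 1176, 1452 and 2039 CPM in the lowest, median and highest colony 5 bee, against 699.8, 891 and 1140 CPM in colony 6. GB51044 averaged 616 ± 68.3 CPM in colony 5, against 442 ± 31.0 CPM in colony 6. GB50076 averaged 394 ± 50.4 CPM in colony 5, against 206 ± 14.2 CPM in colony 6, and GB44295 averaged 307 ± 31.2 CPM in colony 5, against 224 ± 13.6 CPM in colony 6 (SD over 18 bees here and below). Reads of these genes were plentiful in all bees of both colonies.

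The narrowest steps were those of GB55708, GB42526 and GB48250. GB55708 was at 155, 174 and 191 CPM in the lowest, median and highest colony 5 bee, against 130, 144 and 153 CPM in colony 6. GB42526 was at 348, 376 and 391 CPM in colony 5, against 266, 310 and 339 CPM in colony 6. GB48250 was at 81.1, 87.6 and 102 CPM in colony 5, against 59.0, 68.2 and 80.2 CPM in colony 6, a ratio of 1.29. The colonies nearly touch in these genes, while the bees of each colony lie close together.

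At the edge of the rule, the lowest colony 5 bee over the highest colony 6 bee gave 1.004 for GB43131 and 1.005 for GB41127 and GB41925, which are inside. It gave 0.9988 for GB44130, 0.9983 for GB44084 and 0.9968 for GB49169, which are outside. At the other limit, GB46864 with a colony 5 mean of 1.16 CPM and GB42493 with 1.89 CPM are inside, while GB43932 with 0.933 CPM and GB49470 with 0.893 CPM are outside. GB49470 had no read in any colony 6 bee, and in all 5 genes held the order with a colony 5 mean under 1 CPM.

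Spread among colony 5 bees was uneven over the set. The median coefficient of variation was 14.1%, against 9.80% over the 10336 genes with a mean of at least 1 CPM in colony 5, and it ran from 4.12% to 49.4%. The median colony 5 mean was lower in the set, at 20.15 CPM against 41.06 CPM, and fewer reads raise this coefficient. GB42493 had the highest coefficient, at 1.07, 1.55 and 4.51 CPM in the lowest, median and highest colony 5 bee, against 0, 0.158 and 1.04 CPM in colony 6. GB45438 followed with 43.3%, at 1.73, 4.59 and 7.56 CPM in colony 5, against 0.874, 1.19 and 1.66 CPM in colony 6, and then GB53096 with 36.3%. GB55710, GB42526 and GB50971 had the lowest, at 4.12%, 4.15% and 4.63%. The rule itself bounds spread, since a wide gene passes only where its colonies lie far apart.

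Single bees were then ordered by level to see whether a colony held 2 separate levels, taken as a gap of at least 1 log2 unit between neighbouring bees (log2 of CPM plus 0.1). In colony 5, 0 of the 63 genes had such a gap, against 2.00% of the 10336 genes, a share near the background, and the largest was 0.76. In colony 6, 5 of the 63 genes had such a gap (7.94%), against 1.91% of the 10336 genes. Both shares are partly set by the rule, which limits low bees in colony 5 and favours genes low in colony 6. At low levels a few reads make such a gap. In GB42343 the upper level is a single bee with 2 reads, and in GB47545 the upper bees had 4 to 14 reads and the lower bees 0 or 1. The gap of GB41925 also lies under 1 CPM, between bees with no read and bees with 13 to 22 reads. The upper bees of GB46994 had 35 to 84 reads and those of GB53893 had 72 to 101.

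Colony 5 bees were at 4.70 to 8.01 CPM for GB46994 and at 5.81 to 8.80 CPM for GB53893. GB46994 was at 0 to 0.0363 CPM in 8 colony 6 bees and at 2.11 to 3.66 CPM in the other 10, with no bee between. The mean of the upper 10 bees was 3.02 ± 0.571 CPM, which is 47.7% of the colony 5 mean of 6.33 CPM. They were 5 unresponsive bees, 3 guards and 2 nurses. GB53893 was at 0 to 0.120 CPM in 10 colony 6 bees and at 3.59 to 5.37 CPM in 8, whose mean of 4.06 ± 0.594 CPM is 53.8% of the colony 5 mean of 7.55 CPM. These 8 were 3 unresponsive bees, 4 guards and 1 nurse. Both genes therefore combine near absence in some colony 6 bees with an intermediate level in the rest.

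GB41925 was at 0 in 10 colony 6 bees and at 0.631 to 1.19 CPM in 8, whose mean of 0.899 ± 0.184 CPM is 29.7% of the colony 5 mean of 3.03 CPM. The upper bees were not the same in every gene, and the overlap was unequal. For GB46994 and GB53893, 5 bees were upper in both, 5 in GB46994 alone, 3 in GB53893 alone and 5 in neither. For GB41925 and GB53893, 6 bees were upper in both, 2 in GB41925 alone, 2 in GB53893 alone and 8 in neither. For GB41925 and GB46994, 3 bees were upper in both, 5 in GB41925 alone, 7 in GB46994 alone and 3 in neither. Guard 237, Nurse 222 and Unresponsive 230 were upper in all 3 genes, and Guard 230, Nurse 210 and Nurse 213 were lower in all 3.

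**Figure D2:**
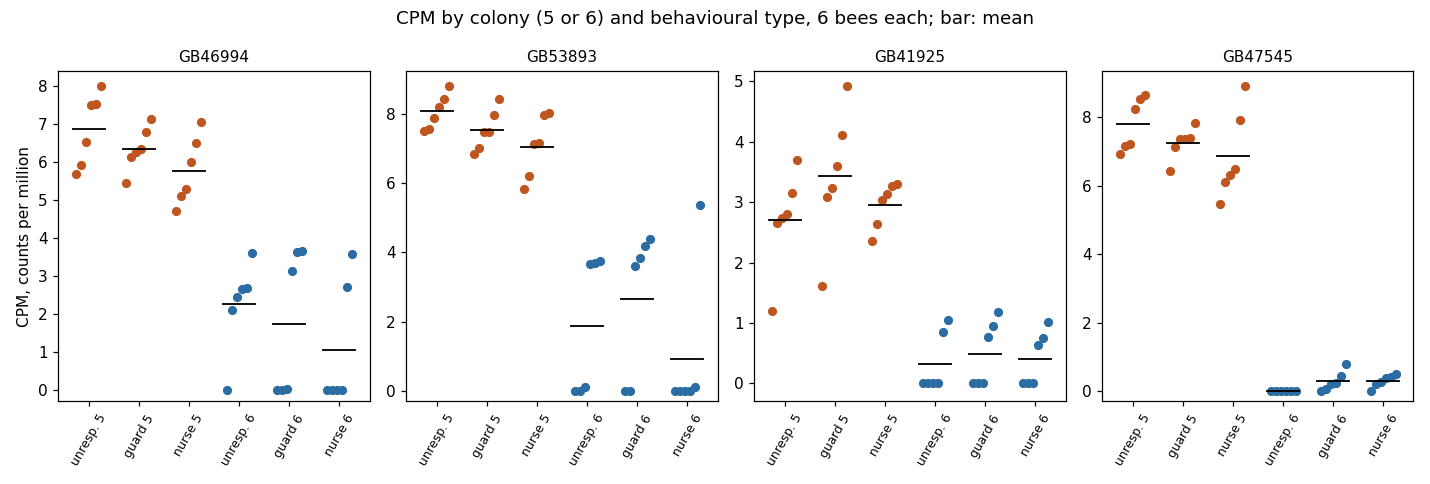
CPM of 4 genes (linear axis) in each bee by colony and behavioural type, 6 bees per column, with colony 5 left of colony 6 and a bar at the mean. GB46994, GB53893 and GB41925 fall into 2 levels in colony 6, with 8, 10 and 10 bees at the lower level, and GB47545 is at 0 in all 6 unresponsive colony 6 bees.

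The gene IDs carry numbers, and the set held several runs of neighbouring numbers. The genes were not placed on the genome here, so nearness in number is not shown to be nearness on a chromosome. Of the 63 genes, 14 (22.2%) had another gene of the set at the next number, while 0.634% of the 10885 other tested genes had a gene of the set at the next number. Within 10 numbers the shares were 31.7% and 6.21%. The 20 genes linked in this way form 7 runs of 2 to 4 genes.

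The run from GB55708 to GB55711 holds 4 genes with unequal ratios of 1.203, 51.9, 2.33 and 1.67. GB55709 in its midst was near absent in colony 6, while GB55711 averaged 57.8 ± 4.69 CPM in colony 5, against 34.6 ± 3.59 CPM in colony 6. The run from GB47297 to GB47300 splits into pairs, with ratios of 12.5 and 12.4 for GB47297 and GB47298, then 2.90 and 2.84 for GB47299 and GB47300. GB47297 was at 5.78, 7.28 and 8.77 CPM in the lowest, median and highest colony 5 bee, against 0.1598, 0.570 and 0.929 CPM in colony 6. GB47298 was at 10.3, 12.9 and 16.0 CPM in colony 5, against 0.215, 1.23 and 1.75 CPM in colony 6. The second pair was far higher in CPM, since GB47299 averaged 189 ± 11.1 CPM in colony 5, against 65.2 ± 7.78 CPM in colony 6, and GB47300 averaged 134 ± 7.31 CPM in colony 5, against 47.0 ± 5.43 CPM in colony 6. All 4 were higher in each colony 5 bee, the first pair by a wide step and the second by a moderate one.

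In the run from GB43963 to GB43966 the outer genes were members and an inner gene was not. GB43963 averaged 16.0 ± 1.26 CPM in colony 5, against 11.0 ± 1.248 CPM in colony 6, whereas GB43965 and GB43966 were near absent in colony 6. GB43964, between them by number, averaged 71.3 ± 5.02 CPM in colony 5, against 76.1 ± 7.59 CPM in colony 6, with a log2 difference of -0.09 ± 0.04 (SE) and an adjusted p of 0.0863 by the edgeR quasi-likelihood test. A step of over 50-fold on one side thus stands next to a gene that did not pass the test.

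The run from GB46861 to GB46864 was even, with ratios of 2.02 for GB46861, 2.09 for GB46863 and 2.35 for GB46864. Its tested flanks leaned the same way: GB46859, GB46860, GB46865, GB46867 and GB46868, none of them in the set, had log2 differences of 1.11, 1.05, 0.51, 0.64 and 0.73, each higher in colony 5 with an adjusted p of at most 0.000394 by edgeR. GB46860 was at 0.611 to 2.21 CPM in colony 5 and at 0.162 to 1.05 CPM in colony 6, so that its colonies overlapped. GB46858, too low to be tested, averaged 0.290 ± 0.258 CPM in colony 5, against 0.371 ± 0.178 CPM in colony 6.

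The other 3 runs are pairs. GB41070 averaged 2.88 ± 0.552 CPM in colony 5, against 0.731 ± 0.234 CPM in colony 6, and GB41071 averaged 2.33 ± 0.380 CPM in colony 5, against 0.734 ± 0.259 CPM in colony 6. GB46396, next but one to GB46398, was at 3.64, 5.48 and 6.93 CPM in the lowest, median and highest colony 5 bee, against 0.549, 1.30 and 1.69 CPM in colony 6. GB53897 averaged 2.36 ± 0.696 CPM in colony 5, against 0.626 ± 0.318 CPM in colony 6, and lies 4 numbers from GB53893, the gene with 2 levels. In each pair both genes had a ratio above 3.

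**Figure D3:**
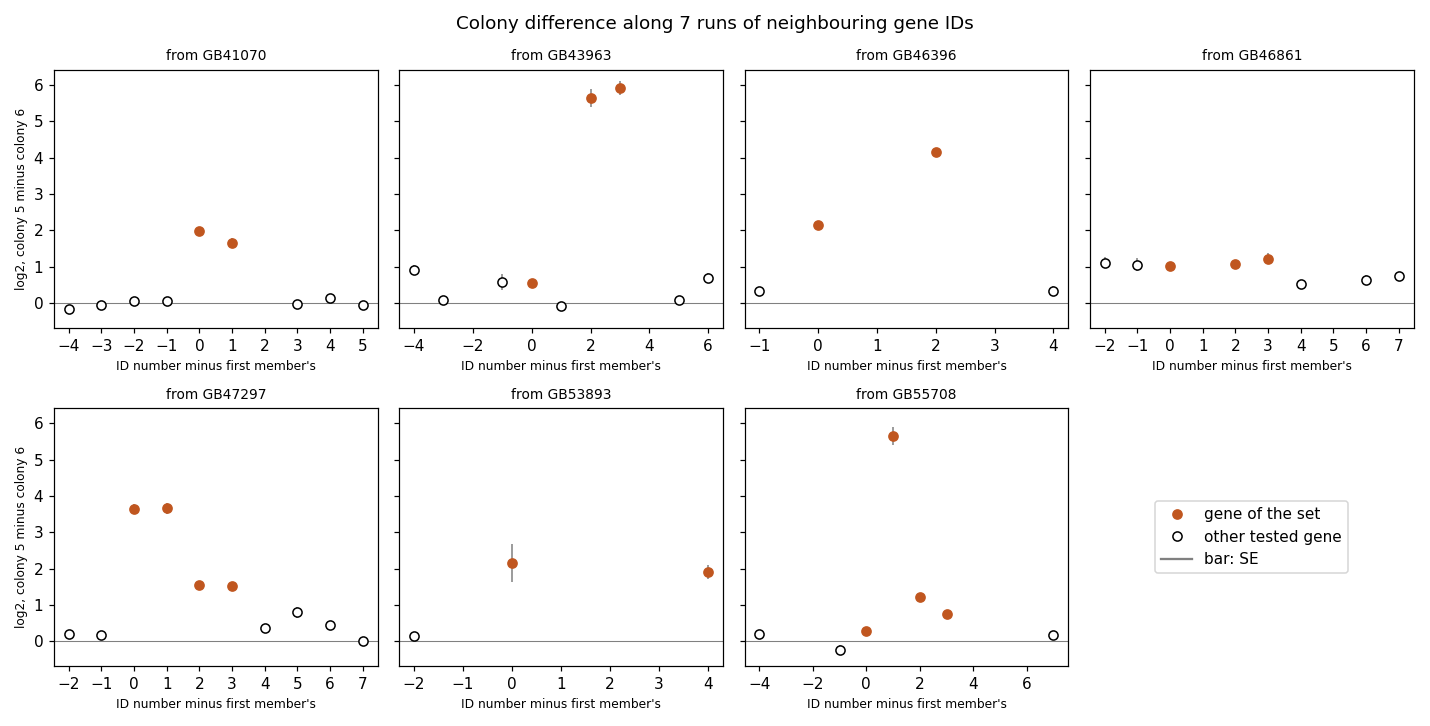
Fitted log2 difference, colony 5 minus colony 6, against gene ID number counted from the first gene of each of 7 runs; filled points are genes of the set, open points other tested genes, and bars are standard errors. Filled points of a run differ widely in height around GB55709, GB43965 and GB47297 and little around GB46861, and the open point between the filled points of the GB43963 run lies near 0.

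Other genes next to the set by number leaned towards colony 5 as well. Of the 69 other tested genes at a number next to a gene of the set, 25 were higher in colony 5 (36.2%) and 10 were lower (14.5%) at an adjusted p under 0.05, against 17.0% and 16.8% of all 10885 tested genes outside the set. Within 2 numbers 44 of 131 were higher (33.6%) and within 5 numbers 84 of 339 (24.8%), so the share fell with distance. Their differences were small. The median log2 difference of the 69 was 0.07, against 0.00 over all genes outside the set. GB41202, next to GB41203, averaged 0.709 ± 0.301 CPM in colony 5, against 0.323 ± 0.154 CPM in colony 6. GB41203 itself averaged 34.0 ± 8.76 CPM in colony 5, against 13.2 ± 3.02 CPM in colony 6.

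Neighbours could also run the other way. GB41275 was at 0.117, 5.62 and 8.003 CPM in the lowest, median and highest colony 5 bee, against 9.76, 11.5 and 13.9 CPM in colony 6, without overlap. Its neighbour GB41276, a gene of the set, was at 2.20, 3.16 and 4.23 CPM in colony 5, against 0.344, 0.835 and 1.71 CPM in colony 6. GB53767 and GB53769, on either side of GB53768, had log2 differences of -1.29 ± 0.26 and -0.41 ± 0.15 (SE), while GB53768 averaged 24.4 ± 3.79 CPM in colony 5, against 14.2 ± 2.35 CPM in colony 6. These neighbours were singled out after their values were seen, and whether reads were counted by strand is not given in the sources used here, so reads of overlapping genes could not be separated.

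Behavioural type was balanced over the colonies and was not named in the rule. The rule still bounds type differences, since bees of every type in colony 5 had to lie above those of every type in colony 6. The comparison asks whether genes that part the colonies also part bees that ignore social stimuli, guards and nurses. None of the 63 genes passed an adjusted p of 0.05 by the edgeR quasi-likelihood test in any of the 3 comparisons of types. Over all 10948 genes the share called was 0.0% for unresponsive bees against nurses, 0.0913% for guards against nurses and 0.0183% for unresponsive bees against guards. At an unadjusted p under 0.05 there were 7 of 63 genes for unresponsive bees against nurses (11.1%, background 5.4%), 7 for guards against nurses (11.1%, background 15.2%) and 3 for unresponsive bees against guards (4.76%, background 15.7%). DESeq2 called 0 of the 63 genes in each comparison as well, against 8, 115 and 105 of all 10948 genes in the same order of comparisons. At an unadjusted p under 0.05 it gave 7, 7 and 4 of the 63 genes, against 5.58%, 16.0% and 16.0% of all genes. With shares of calls this low over all genes, 0 of 63 is near the background. These shares, and those for DWV load below, include genes that passed the low-count filter only through colony 5.

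Type differences were small beside the colony step, which the rule partly fixes. The median size of the log2 difference, sign left aside, was 0.06 for unresponsive bees against nurses, 0.10 for guards against nurses and 0.09 for unresponsive bees against guards. Over all genes tested it was lower, at 0.04, 0.07 and 0.07 in the same order. The median colony difference of the set was 1.22, which the rule selected to be large. Over the 3 comparisons the log2 differences of the 63 genes spanned -0.46 to 0.72. The median standard error was 0.09, and the widest was 0.64, for GB53893 with its 2 levels, so that for this gene a type difference of that size was not detectable.

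The smallest p for unresponsive bees against nurses was that of GB46334, with a log2 difference of -0.25 ± 0.08 (SE) and an adjusted p of 0.6 by edgeR. It averaged 22.99 ± 3.53 CPM in unresponsive bees and 27.8 ± 2.89 CPM in nurses of colony 5, and 12.7 ± 1.73 CPM in unresponsive bees and 14.6 ± 1.39 CPM in nurses of colony 6 (SD, n = 6 each). The types overlapped in both colonies. For guards against nurses it was GB42526, with -0.09 ± 0.03 and an adjusted p of 0.174 by edgeR, at 368 ± 14.6 CPM in guards, against 382 ± 11.3 CPM in nurses, of colony 5 and at 301 ± 22.5 CPM in guards, against 320 ± 18.9 CPM in nurses, of colony 6. For unresponsive bees against guards it was GB52466, with 0.25 ± 0.08 and an adjusted p of 0.155 by edgeR. GB52466 averaged 1615 ± 293 CPM in unresponsive bees and 1441 ± 125 CPM in guards of colony 5, and 982 ± 137 CPM in unresponsive bees and 788 ± 87.3 CPM in guards of colony 6.

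**Figure D4:**
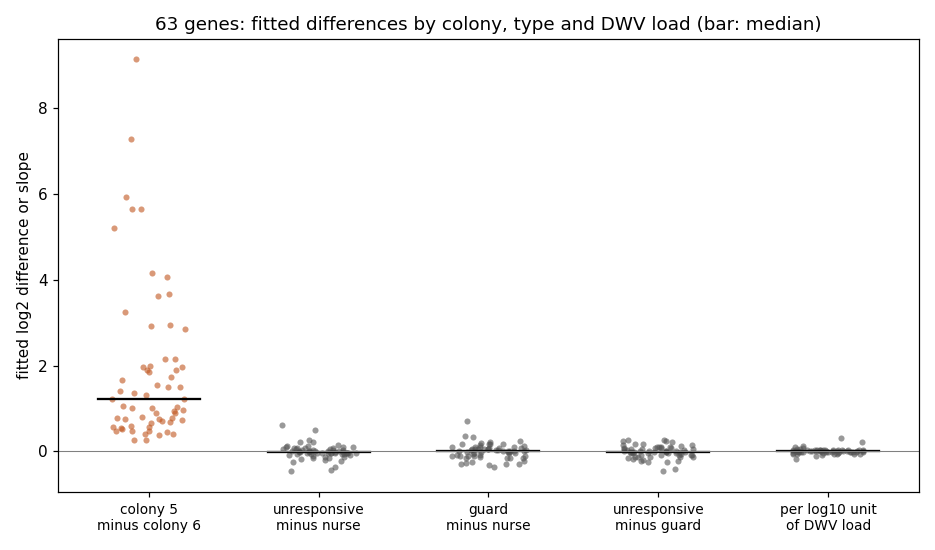
Fitted log2 differences of the 63 genes (points) between the colonies and between behavioural types, and the log2 slope per log10 unit of DWV load, with a bar at each median. The colony differences, which chose the genes, run from 0.27 to 9.13, while the differences between types lie between -0.46 and 0.72 and the slopes between -0.18 and 0.31.

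In the test of type by colony, 1 gene of the set, GB47545, had an adjusted p under the threshold, at 0.0376 by the edgeR quasi-likelihood test. The gene passed the low-count filter through colony 5, where the rule made it high, and did not pass it in colony 6 alone, so the call rests on a few reads in colony 6 and is given as a value. Over all genes 3 were called (0.0274%), and at an unadjusted p under 0.05 there were 4 of the 63 genes, against 4.14% of all. In colony 5, GB47545 had 832 reads in unresponsive bees, 794 in guards and 798 in nurses. In colony 6 it had 0 reads in the 6 unresponsive bees, 36 reads in the 6 guards and 37 reads in the 6 nurses. A count of 0 allows a mean of up to 0.0253 CPM at 3 reads over those 6 libraries, a limit for counting error only.

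In colony 5 GB47545 averaged 7.79 ± 0.772 CPM in unresponsive bees, 7.24 ± 0.469 CPM in guards and 6.86 ± 1.29 CPM in nurses (SD, n = 6 each). In colony 6 guards it had a lowest, median and highest level of 0, 0.232 and 0.805 CPM, and in colony 6 nurses 0, 0.325 and 0.505 CPM. With colony 5 libraries alone, unresponsive bees against nurses gave a log2 difference of 0.17 ± 0.11 (SE) and an adjusted p of 0.761 by edgeR. The call was lost, among other settings, without the 3 libraries numbered 213 (adjusted p of 0.337 by edgeR), with DWV load as a covariate (0.186) and with no low-count filter (0.0505), and it was kept by DESeq2 (1.88e-08). DESeq2 was run on the genes that the same filter kept, on the same few reads in colony 6, so it lends the call no support. All colony 6 levels of GB47545 were under 1 CPM.

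The labels give each library's reads mapped to DWV, from which a load in reads per 1000000 total reads (RPM) was computed. Loads fell into 2 ranges with no bee between, a high range of 6673 to 28970 RPM and a low range of 2.602 to 63.9 RPM. Among colony 5 bees 13 of 18 were in the high range, and among colony 6 bees 3 of 18. By type the high range held 6 unresponsive bees, 5 guards and 2 nurses of colony 5, and 0 unresponsive bees, 3 guards and 0 nurses of colony 6, with 6 bees in each of these groups. Load is thus uneven over both colony and type.

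In a model with type and colony, none of the 63 genes passed an adjusted p of 0.05 for a slope of its level on log10 load (edgeR), against 0.0% of all genes. DESeq2 called 0 of the 63 genes, against 12 of all 10948. An unadjusted p under 0.05 was found for 2 of the 63 genes (3.17%, background 4.38%), and DESeq2 gave 3, against 4.77% of all genes. The median slope was 0.01 log2 units per log10 unit of load with a median standard error of 0.04. With the sign left aside it was 0.0234, against 0.0162 over all genes tested. GB47545 had the smallest p, with a slope of 0.31 ± 0.12 (SE) and an adjusted p of 0.999 by edgeR. In colony 5 bees alone, where the gene had more reads, its slope was 0.09 ± 0.04 (SE). It averaged 7.68 ± 0.738 CPM in the 13 colony 5 bees of high load and 6.30 ± 0.599 CPM in the 5 of low load, and 0.432 ± 0.375 CPM in the 3 colony 6 bees of high load and 0.150 ± 0.181 CPM in the 15 of low load. GB48081 had a slope of 0.12 ± 0.05 (SE) over all bees and of 0.05 ± 0.07 (SE) in colony 5 bees alone. It averaged 10.5 ± 2.73 CPM in colony 5 bees of high load and 7.81 ± 0.634 CPM in those of low load, of which 4 were nurses and 1 was a guard. Neither slope passed after adjustment. In colony 5 bees alone, 3 of the 63 genes had an unadjusted p under 0.05 by edgeR, against 1.94% of all genes, and none passed after adjustment. Beside GB47545 they were GB49876, with a slope of 0.25 ± 0.10, and GB53531, with -0.12 ± 0.05 (SE). In colony 6 bees alone it was 1 of the 55 genes that passed the filter, against 8.49% of all genes.

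The size of the colony differences was also computed with load taken into account. The rule sets every colony 5 bee above every colony 6 bee, so the direction is fixed in any subset of bees and does not bear on load. In the low-load bees alone, 5 of colony 5 and 15 of colony 6, the median log2 difference was 1.10 and the lowest 0.28. The gene that changed most was GB42343, with 8.47 ± 0.43 (SE) in low-load bees, against 9.13 in all bees. All colony 6 reads of GB42343 came from Guard 222, a low-load bee, so its colony 6 level rests on 2 reads. With load as a covariate in all bees the median was 1.07 and the lowest 0.25, and GB47545 changed most, with 4.72 ± 0.34 (SE) against 5.21 without the covariate. The differences of 31 genes were smaller among low-load bees than among all bees, and those of 38 genes were smaller with load as a covariate. Taken gene by gene, the median change in log2 difference was 0.0008 among low-load bees and -0.02 with the covariate.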

How the data were processed

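RNA was measured in 36 single-bee libraries. The authors deposited whole-number read counts per gene, not normalized, in one file per bee. The tools named are TopHat2 2.0.10 and HTSeq, SAMtools 0.1.19, CASAVA 1.8.2 and Bowtie2 2.1.0, per the submitters' processing notes. Sources used here do not give their order, settings or strand option. The 5 summary rows that name no gene held 31.9% ± 0.493 of counted reads (SD, n = 36) and stayed out of library sizes and tests.

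CPM used plain library totals and chose the set. Log2 differences came from edgeR 4.0.16 in R 4.3.3 (filterByExpr by type, TMM, robust quasi-likelihood fit of colony and type on all 36 libraries, 10948 genes), and standard errors are the log2 difference over the square root of F. Further models added type by colony, or log10 DWV load. P-values were adjusted by Benjamini-Hochberg over all genes tested. Alternatives were DESeq2 1.42.0, its size factors, no filter, a block on title number, load as a covariate, low-load bees only, no libraries numbered 213, other limits in the rule, and each bee left out. Fits within a single colony were added after the data were seen. The models were tested on simulated counts. Tables and figures used Python 3.11.15, pandas 2.3.3, NumPy 2.4.6, SciPy 1.17.1 and matplotlib 3.10.9.

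The genes and rules were chosen with earlier results of these data known. Genes named are the 10 highest ratios, the 5 highest colony 5 means, the 3 lowest ratios, the 3 highest and 3 lowest coefficients of variation, the smallest p of each test, runs within 10 ID numbers, genes with 2 levels, genes at the edge of the rule, and neighbours singled out after their values were seen. GB41203 and GB53768 are named as members next to such neighbours, and GB48081 and GB53531 for their unadjusted p. Bees of a colony are sisters of a single family, so p-values between types measure the spread within 2 families.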

Additional observations from a re-analysis of the deposited data

Results flagged for a closer look

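GB46334 in colony 5 nurses stood out for a single bee: Nurse 19 was at 22.2 CPM, while the other 5 nurses of colony 5 were at 27.1 to 29.7 CPM. The gap from Nurse 19 to the nearest bee passed Dixon's 95% critical value for 6 bees. In all, 24 groups of 6 bees were looked at in this way, and chance flags about 1 in 20.

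GB47545 had an adjusted p of 0.0376 by the edgeR quasi-likelihood test of type by colony. It passed the low-count filter through colony 5, for which it was chosen, so the test rests on a few reads in colony 6. The adjusted p was 0.0505 with no filter, 0.146 with a block on title number, 0.186 with load as a covariate and 0.337 without the 3 libraries numbered 213. All colony 5 bees had at least 5.47 CPM. In colony 6 the 6 unresponsive bees had no read, and the 12 guards and nurses had at most 0.805 CPM.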

How the results depend on the processing

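The number of genes in the set was 63 as chosen, 64 on TMM-scaled or DESeq2-scaled library sizes (60 shared with the 63 in both), 68 with a minimum mean of 0.1 CPM, 55 with 4 CPM and 39 with 10 CPM. It was 18 when the lowest colony 5 bee had to exceed 1.5 times the highest colony 6 bee, and 15 at 2 times. Leaving out a single bee gave 63 to 68, the most without Guard 213, and leaving out the 3 libraries numbered 213 gave 77. Leaving out bees loosens the order asked for, and stricter limits can only remove genes, so these directions are largely fixed by the rule. The median log2 colony difference was 1.22 and moved to 1.07 with DWV load as a covariate. It was between 1.10 and 1.22 with DESeq2, its size factors, no filter, low-load bees or without number 213. Taken gene by gene, the median change was smaller, at -0.02 with the covariate and 0.0008 in low-load bees. Of 378 recomputed single-gene colony differences, 376 moved by less than the spread between bees and 2 moved by more. The rule fixes the sign of these differences on plain CPM, but not with load as a covariate, where all 63 genes were above 0. The genes were still chosen on this contrast.

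The calls by type and by DWV load were 0 of 63 in every alternative run, where at most 115 of all 10948 genes were called (guards against nurses, DESeq2), so that 0 of 63 is near the background. That includes fits within colony 5 or colony 6 alone, added after the data were seen, where 63 and 55 of the genes passed the filter. The type by colony call of GB47545 went from 1 gene to 0 with no filter (adjusted p 0.0505, more genes tested), with a block on title number (0.146), with load as a covariate (0.186) and without number 213 (0.337). It remained with DESeq2 (1.88e-08) and its size factors (0.0374). Both of these runs kept the same filter and rest on the same few reads in colony 6, so they lend the call no support. The cause of the losses was not tested. The count of 25 neighbours higher in colony 5 became 44 within 2 numbers and 84 within 5, as more genes are then counted.

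Title numbers were not treated as pairs. Deviations of same-numbered bees correlated at -0.155 to 0.352 over 36 pairs (median 0.126, 21 over 0.1). Pairs of different numbers, 180 in all, had a median of -0.0312, with 41 over 0.1. Of 36 libraries, 14 correlated best with their own number. Same-numbered bees were thus more alike than others, which the main tests by type left out. With the replicate block, 0 of 63 genes were called by type or by type by colony, and over all genes the block moved the count for guards against nurses to 38 from 10 and for unresponsive bees against guards to 9 from 2.

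Depth limits statements on genes under about 1 CPM, where single reads set a level. A colony here is a single family, so nothing separates a family from its rearing.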
